A study of Mus musculus with 7 samples.

Results

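The Egr, Nr4a and Klf early-response genes described here are 10 genes, Egr1, Egr2, Egr3, Nr4a1, Nr4a2, Nr4a3, Klf2, Klf4, Klf6 and Zfp36, out of 34932 genes in the quantified transcript tables. They were taken as listed early-response genes outside the AP-1 family, with no measured value in the rule. Members and gene lists were chosen with earlier results of these data known. RNA was sequenced from LT-HSCs, long-term haematopoietic stem cells able to rebuild every blood lineage, sorted as lineage-negative cells with Sca-1, c-Kit and CD150 but without CD48. The 4 libraries labelled KO carry the genotype 129S1/C57Bl/6, B4-/-, described as a full knockout of B4galt1, a galactosyltransferase of N-glycan antennae. The 3 libraries labelled WT carry 129S1/C57Bl/6 without that allele. All 7 share the mixed 129S1 and C57Bl/6 background, bone marrow as source and the same sort, and the labels used here name no treatment, age or sex and do not say that replicates are separate animals. P-values therefore measure the spread between these libraries, which may be partly technical.

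Early-response genes are transcribed within minutes of a stimulus from factors already in the cell, without new protein. Serum response factor at CArG boxes and CREB at cyclic AMP response elements (CREs) are classical activators. Egr1 is known to hold HSCs in quiescence and in their niche, Nr4a orphan receptors restrain HSC proliferation, and Klf2, Klf4 and Klf6 are zinc finger factors of endothelial, myeloid and stem cells. Zfp36 (tristetraprolin) binds AU-rich mRNAs and shortens their life. Sorting and tissue dissociation are also known to induce such genes.

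Each library held between 23508985 and 34941390 estimated reads, most in KO replicate 4. B4galt1 did not separate the labels: means were 15.9 ± 2.28 CPM (SD, n = 4) for KO and 18.3 ± 6.62 CPM (SD, n = 3) for WT (log2 fold change -0.20, edgeR adjusted p = 0.758), so each direction below rests on the labels. CPM are estimated reads scaled to library size, and values listed for a group are in order of replicate number, KO 1 to 4 and WT 1 to 3. All 12 LT-HSC markers examined, Procr, Slamf1 and Hlf among them, were detected in every library, with a sum of 1455 to 1675 CPM in KO and 1722 to 1987 CPM in WT. Of these 12, edgeR called 0 and DESeq2 and limma voom 2 lower each. With edgeR, 4 were lower and 0 higher before adjustment (p below 0.05), and the median log2 fold change was -0.41. Over all tested genes edgeR called 0.599% higher and 1.66% lower, and 14.6% had an unadjusted p below 0.05 in either direction. KO replicate 4 and WT replicate 3 lacked Y-linked expression (sums of 10.9 and 6.04 CPM, against 255.7 to 364.6 CPM in the other 5). KO replicate 4 also stood apart from the other libraries labelled KO, with correlations of log2 CPM across genes of 0.939 to 0.956 against 0.969 to 0.978 among the other 3. WT replicate 2 correlated at 0.942 to 0.944 with the other WT libraries, which correlated at 0.965. Megakaryocyte and platelet markers moved with the labels: 11 of 14 were lower in KO and 0 higher, with sums of 1328 to 2177 CPM against 5661 to 12506 CPM, and none of them was at 0 in any library. Granulocyte markers summed to between 133.1 and 219.0 CPM in KO and between 99.7 and 106.1 CPM in WT, with 1 of 10 tested, S100a9, called lower, and 4 higher and 4 lower before adjustment. The part of these populations in the values below was not tested. In such bulk samples, fewer cells of a type and less RNA per cell cannot be told apart.

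Promoter windows were the 250 bases before the RefSeq start (GRCm38.p6, the most upstream where several are listed). Windows were matched by symbol for 8 of the members, all but Egr1 and Egr3, which were not scanned. Printed here are those of Nr4a1 and Klf2, the members of smallest p and opposite direction, that of Klf6, the member of narrowest interval, and 30 bases around the CArG box of Zfp36. Klf2 and Klf6 stop before the first annotated exon, and the Nr4a1 window lies within its gene, in an intron of longer transcripts. The Zfp36 stretch precedes the RefSeq start but lies inside the first exon of the longer GENCODE transcript Zfp36-201. Capitals mark matches, on either strand, to the CRE core TGACG, the Egr-type GC-rich site GCGGGGGCG, the MEF2 consensus and the CArG box. Nr4a1 is shown from chr15:101266596-101266845 (plus strand), Klf2 from chr8:72318812-72319032 (plus), Klf6 from chr13:5861239-5861481 (plus) and Zfp36 from chr7:28379267-28379296 (minus).
Nr4a1: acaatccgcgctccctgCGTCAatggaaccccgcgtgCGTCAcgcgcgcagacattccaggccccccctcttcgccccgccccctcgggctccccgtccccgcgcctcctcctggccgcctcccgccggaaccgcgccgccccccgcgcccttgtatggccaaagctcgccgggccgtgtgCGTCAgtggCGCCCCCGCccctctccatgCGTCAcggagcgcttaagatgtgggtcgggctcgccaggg
Klf2: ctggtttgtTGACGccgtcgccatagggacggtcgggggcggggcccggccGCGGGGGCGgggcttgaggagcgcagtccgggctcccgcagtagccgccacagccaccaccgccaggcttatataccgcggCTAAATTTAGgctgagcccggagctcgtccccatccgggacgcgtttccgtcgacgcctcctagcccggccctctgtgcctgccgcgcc
Klf6: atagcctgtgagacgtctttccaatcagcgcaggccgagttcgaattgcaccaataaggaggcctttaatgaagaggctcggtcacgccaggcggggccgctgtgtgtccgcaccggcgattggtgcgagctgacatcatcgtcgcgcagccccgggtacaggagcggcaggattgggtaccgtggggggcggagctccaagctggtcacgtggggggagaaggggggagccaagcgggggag
Zfp36: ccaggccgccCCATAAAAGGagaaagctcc

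The windows of Nr4a1, Nr4a2 and Nr4a3 each held 4 CRE cores, in Nr4a1 at positions -233, -213, -69 and -40 from the start. Of 32817 promoter windows of the same length, 17.7% held at least 1 and 0.137% held 4 or more. Klf2 and Klf4 had 1 each, and Egr2, Klf6 and Zfp36 had 0. The full CRE TGACGTCA was in none of the 8 windows and in 1.55% of all. The Egr-type site stood in Nr4a1, Klf2, Klf4 and Zfp36 (2.57% of all windows), where it can overlap the GC box GGGCGG, which is in all 8 and in 32.7% of all windows. Among the 8, a CArG box was found in Zfp36 alone (1.47% of all), and a MEF2 consensus in Klf2 and Nr4a2 (2.92%). Egr1 and Egr3 had no window here, so their motifs are unknown. The AP-1 sites TGACTCA and TGAGTCA were in none of the 8 (4.46% of all). These are matches of letters, not measured binding.

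None of the 10 genes passed the test between libraries labelled KO and WT, in either direction. Of the 10, 7 passed the filter on low counts, and 0 of these 7 were called by edgeR, against 2.26% of the 14695 genes tested (0.599% higher, 1.66% lower). DESeq2 and limma voom also called 0. At an unadjusted p below 0.05 there were 2 of the 7, Klf2 higher and Nr4a1 lower, against 14.6% of all genes. The median log2 fold change of the 7 was -0.21, against 0.03 for all genes tested, with 3 above 0 and 4 below. In 2 of the 7, Nr4a1 and Klf4, every library labelled KO lay below every WT library, which 7.47% of all tested genes showed, and in 0 did every one lie above, which 8.23% showed.

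**Figure D1:**
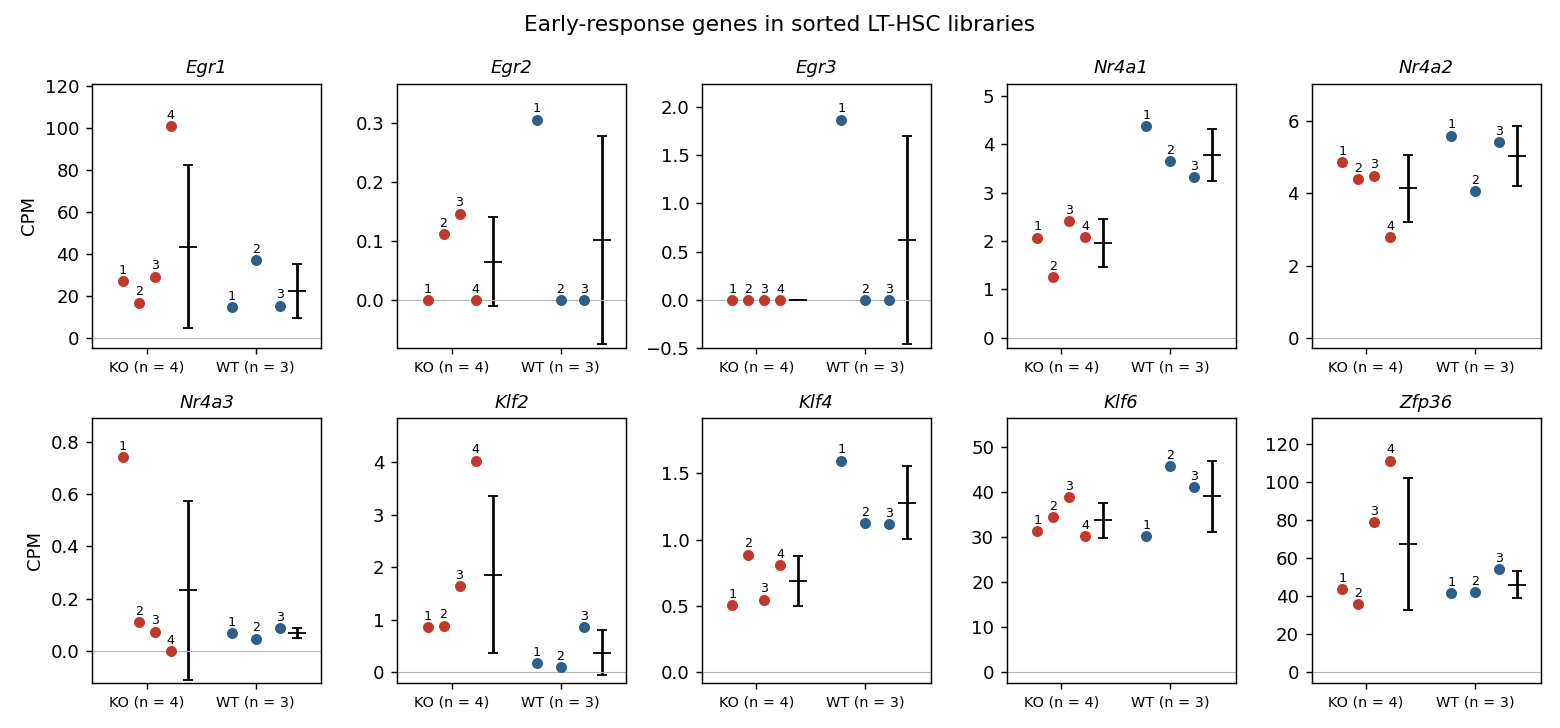
CPM of each of the 10 genes (y axis, linear, own scale per gene) in the 4 libraries labelled KO (red) and 3 labelled WT (blue), numbered by replicate, with mean and SD as black bars. KO replicate 4 is the highest point for Egr1, Klf2 and Zfp36, while Nr4a1 and Klf4 lie lower in every KO library than in any WT library.

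Levels can be compared between genes only per length, for which the deposited TPM (transcript abundance scaled for length and depth) were summed per gene. By median TPM over the 7 libraries the order was Zfp36 (20.8), Klf6 (14.6), Egr1 (8.85), Nr4a2 (1.49), Nr4a1 (1.47), Klf2 (0.762), Klf4 (0.38) and Nr4a3 (0.0194), with Egr2 and Egr3 at a median of 0. Zfp36 was above Klf6 within each of the 7 libraries, although their ranges overlapped. Part of the Klf6 sum lay on Klf6-202, annotated as a retained intron of 799 bases. It held 6.91 to 10.6 TPM in KO and WT replicate 3, and 0 in WT replicates 1 and 2. The coding transcript Klf6-201 held 6.17 to 8.09 TPM, so the order of Klf6 and Egr1 depends on the transcripts counted. Neighbours in this order had overlapping ranges except at a pair of steps, from Egr1 (lowest 4.68 TPM) to Nr4a2 (highest 4.28 TPM), and from Klf4 (lowest 0.214 TPM) to Nr4a3 (highest 0.139 TPM).

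Egr1 (ENSMUSG00000038418, GRCm38 chromosome 18, 34859823 to 34864984, plus strand) encodes a zinc finger activator of the serum and growth factor response. The KO libraries held 26.9, 16.7, 29.1 and 101.1 CPM, and the WT libraries 14.6, 36.9 and 15.2 CPM. The groups overlapped, with WT replicate 2 above 3 of the 4 libraries labelled KO, and KO replicate 4 stood 3.75 times over the median of the other 3. The log2 fold change, KO over WT, was 0.97 (SE 0.58, 95% interval -0.31 to 2.26, edgeR adjusted p = 0.478). Without KO replicate 4 it was 0.15 (edgeR adjusted p = 0.916), without WT replicate 2 it was 1.52 (0.424), and among the 5 libraries with Y-linked expression its sign turned, to -0.0604 (0.957).

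The annotation gives Egr1 a pair of coding transcripts. Egr1-201 runs from 34859823 and Egr1-202 from 34861207, inside the first exon of the former. Egr1-202 took 78.9% of the gene's estimated reads in KO replicate 4 (95% Wilson interval 77.5% to 80.2%, counting error only) and 24.0% to 48.6% in the other libraries labelled KO. In WT it took 37.2% to 55.4%. Group means were 44.1% ± 25.9 (SD, n = 4) and 43.6% ± 10.2 (SD, n = 3), a difference well within the spread (two-sided exact permutation p = 0.971). The split is Salmon's estimate, since the transcripts share most of their sequence.

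Its relatives were nearly silent. Egr2 (ENSMUSG00000037868, chromosome 10, 67535475 to 67542188), a factor of myelination and of lymphocyte tolerance, had 3 reads in KO replicate 2, 4 in KO replicate 3, 9 in WT replicate 1 and 0 in the other 4 libraries. Egr3 (ENSMUSG00000033730, chromosome 14, 70077203 to 70082614), known from muscle spindles and lymphocytes, had 55 reads, all in WT replicate 1, and 54 of them were assigned to a retained-intron transcript. For a library with 0 reads, 3 reads are the limit that counting allows, which is 0.081 to 0.141 CPM across libraries. Neither passed the filter. Fitted without it, Egr2 had an edgeR adjusted p of 0.859 and Egr3 of 0.15 (unadjusted p = 0.00528), the latter resting on WT replicate 1 alone, and DESeq2 gave neither an adjusted p. Egr4, a further relative, was at 0 in all 7 libraries.

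Nr4a1 (ENSMUSG00000023034, chromosome 15, 101254269 to 101274795, plus strand), the orphan receptor Nur77, was the member with the steadiest separation. KO libraries gave 2.07, 1.26, 2.41 and 2.08 CPM, and WT libraries 4.38, 3.65 and 3.32 CPM, from 34 to 129 reads each. All 4 values labelled KO lay below all 3 of WT, with means of 1.95 ± 0.492 CPM (SD, n = 4) and 3.79 ± 0.543 CPM (SD, n = 3). The edgeR estimate was -0.95 (SE 0.38, 95% interval -1.79 to -0.11) and did not pass (unadjusted p = 0.03, edgeR adjusted p = 0.284). On the deposited TPM scale the groups overlapped, with KO replicate 3 at 1.58 TPM above WT replicate 2 at 1.47 TPM.

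Nr4a2 (ENSMUSG00000026826, chromosome 2, 57106830 to 57124003, minus strand), the receptor Nurr1 of dopamine neurons, showed no such separation. Its CPM were 4.88, 4.4, 4.5 and 2.78 for KO against 5.6, 4.08 and 5.43 for WT. KO replicate 4, the highest library for Egr1, was the lowest of all 7 here in CPM. The groups differed by -0.29 (SE 0.33, edgeR adjusted p = 0.717), an estimate that was -0.82 with an offset for transcript length and -0.13 without KO replicate 4, neither of which passed. Its reads moved between a coding transcript and Nr4a2-206, which is annotated for nonsense-mediated decay. Nr4a2-206 took 83.7%, 38.2%, 0% and 0% of them in KO and 0%, 79.1% and 54.4% in WT, so the transcript split is uncertain. These transcripts differ little in length (3422 and 3123 bases). In WT replicate 1, a processed transcript of 182 bases held only 5 reads but 2.55 of the gene's 4.28 TPM. The Nr4a2 TPM of that library is therefore uncertain. The part of these reads in the estimate with the length offset was not tested.

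Nr4a3 (ENSMUSG00000028341, chromosome 4, 48045153 to 48086447, plus strand), the receptor Nor1 that acts redundantly with Nr4a1 in myeloid cells, was at the detection limit. KO replicate 1 held 18.5 estimated reads and every other library at most 3.22, and the gene did not pass the filter. Fitted without it, it did not pass the test either (edgeR adjusted p = 0.617, DESeq2 adjusted p = 0.669).

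Klf2 (ENSMUSG00000055148, chromosome 8, 72319033 to 72321656, plus strand), a factor of endothelial flow sensing and lymphocyte quiescence, had the largest fold among the members and few reads. Its reads numbered 22, 24, 45 and 149 for KO, and 5, 2 and 20 for WT. In CPM these were 0.859, 0.887, 1.65 and 4.03 against 0.17, 0.0937 and 0.862. The groups overlapped only through KO replicate 1 and WT replicate 3, which were nearly equal. The estimate of 2.30 (SE 0.88, 95% interval 0.36 to 4.25) did not pass (unadjusted p = 0.0246, edgeR adjusted p = 0.26). With presence of Y-linked expression as a covariate it was 2.73 and passed (edgeR adjusted p = 0.0355), and it was 3.73 without WT replicate 3 (0.119) and 1.59 without KO replicate 4 (0.443).

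Klf4 (ENSMUSG00000003032, chromosome 4, 55527143 to 55532466, minus strand), the monocyte and reprogramming factor, lay the other way at a similar level. KO libraries showed 0.507, 0.887, 0.548 and 0.81 CPM and WT libraries 1.6, 1.12 and 1.12 CPM, from 13.0 to 47.0 estimated reads each. The groups did not overlap, yet the difference of -0.89 (SE 0.51, 95% interval -2.03 to 0.24) did not pass (edgeR adjusted p = 0.464). On the TPM scale the groups overlapped.

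Klf6 (ENSMUSG00000000078, chromosome 13, 5861482 to 5870394, plus strand), a broadly expressed factor of myeloid and endothelial cells, had the smallest range over the 7 libraries relative to its level. Its CPM ran 31.4, 34.4, 38.8 and 30.3 over KO, against 30.3, 45.7 and 41.2 over WT. The groups overlapped, and KO replicate 4, high for Egr1, Klf2 and Zfp36, lay level with WT replicate 1 at the low end, while on the TPM scale WT replicate 2 was lowest (8.09 against 17.9 in KO replicate 4). The difference was -0.21 (SE 0.19, edgeR adjusted p = 0.638), and the 95% interval from -0.64 to 0.21 leaves a fold between 0.644 and 1.16. With the transcript length offset the sign turned, to 0.22 (edgeR adjusted p = 0.691). Salmon put 122 to 164 reads on the short Klf6-202 in each KO library and in WT replicate 3, and 0 in WT replicates 1 and 2. Coding Klf6-201 alone was highest in WT replicate 2 (8.09 TPM) and lowest in KO replicate 1 (6.17 TPM). The part of this split in the change of sign was not tested.

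Zfp36 (ENSMUSG00000044786, chromosome 7, 28376784 to 28380253, minus strand) was the most abundant member per length. Libraries labelled KO had 43.8, 35.9, 78.9 and 111.1 CPM, and those labelled WT 41.4, 42.3 and 54.1 CPM. KO replicates 3 and 4 lay above every WT library, and KO replicate 2 below all of them. The estimate of 0.55 (SE 0.35, 95% interval -0.21 to 1.32) did not pass (edgeR adjusted p = 0.496) and was 0.21 without KO replicate 4 (0.817). Zfp36-202, a single exon that spans the intron of Zfp36-201, took 72.4% to 78.0% of the reads in KO and 40.3% to 81.5% in WT, so the counts do not separate spliced from unspliced RNA. The annotated antisense gene Gm44710 overlaps Zfp36, and the library kit is not described as keeping strand.

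**Figure D2:**
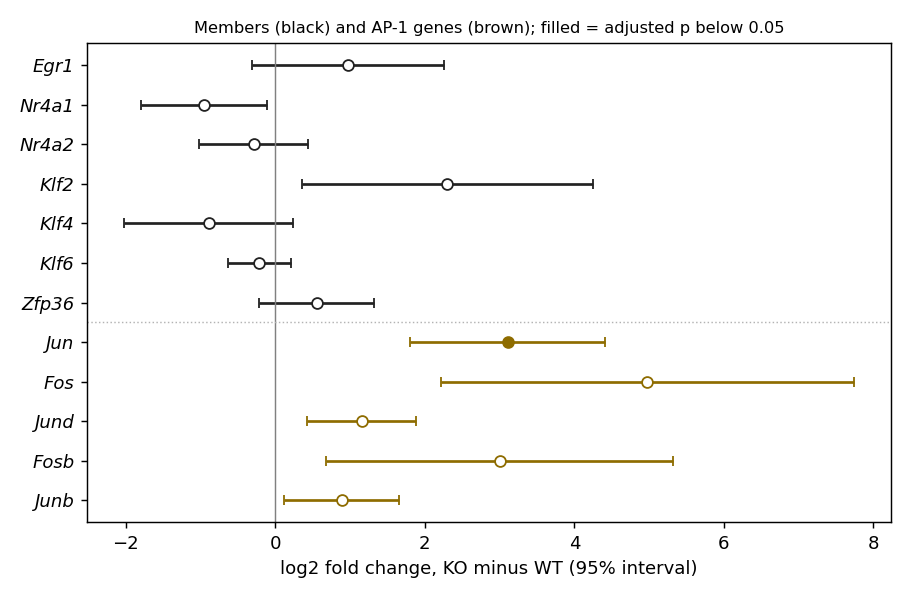
Log2 fold change, KO minus WT, with 95% interval (x axis) for the 7 tested members (black) and 5 AP-1 genes (brown), filled where the edgeR adjusted p was below 0.05. Jun is the only filled point, and the intervals of Klf2 and Nr4a1 leave 0 on opposite sides without passing after adjustment.

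The AP-1 genes, induced by many of the same stimuli, were read in the same fit. Of 10 tested AP-1 genes 1 was called higher, Jun (3.11, edgeR adjusted p = 0.022), and 0 lower, with 5 higher before adjustment. Over all tested genes 0.599% were called higher, and 14.6% had an unadjusted p below 0.05 in either direction. The median was 0.69, and 0.31 without KO replicate 4, which was highest for 6 of the 10, against 26.8% of all tested genes. For Jun, KO libraries read 44.3, 29.5, 96.1 and 200.8 CPM against 9.48, 11.9 and 11.0 CPM for WT. Fos had 10.9, 1.96, 26.4 and 138.1 CPM against 0.781, 1.59 and 1.90 CPM (edgeR adjusted p = 0.0772). As with Egr1 and Zfp36, KO replicate 4 was highest for both. Unlike for those members, the other 3 libraries labelled KO also lay above WT, clearly so for Jun. For Fos, KO replicate 2 (1.96 CPM) was nearly level with WT replicate 3 (1.90 CPM).

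Within each library, Jun was set over each of the 7 tested members, which removes any scaling; this comparison was chosen after the values were seen. Jun over Egr1 came to 1.65, 1.76, 3.31 and 1.99 for KO against 0.65, 0.321 and 0.72 for WT. The mean log2 ratio was 1.06 ± 0.455 (SD, n = 4) against -0.91 ± 0.633 (SD, n = 3), and the groups did not overlap. For 6 of the 7 members every KO ratio lay above every WT ratio. The two-sided exact permutation p was 0.0571 each (0.0667 adjusted over the 7), the smallest that 4 against 3 libraries allow. Since Jun itself was called higher in KO, these p-values mostly restate that call and are no evidence about the members. The same separation held for 89.8% of all tested genes with reads in every library, so the 6 did as most genes did. The exception was Klf2: Jun was 51.6, 33.2, 58.4 and 49.9 times Klf2 in KO, and 55.8, 126.5 and 12.7 times in WT (exact permutation p = 0.857). The WT ratios to Klf2 rest on 5, 2 and 20 Klf2 reads. Across KO libraries Jun itself ran from 29.5 to 200.8 CPM. The KO ratios ran from 33.2 to 58.4 for Klf2, from 1.65 to 3.31 for Egr1 and from 0.82 to 1.81 for Zfp36. Those to Nr4a1, Nr4a2, Klf4 and Klf6 ran more widely.

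**Figure D3:**
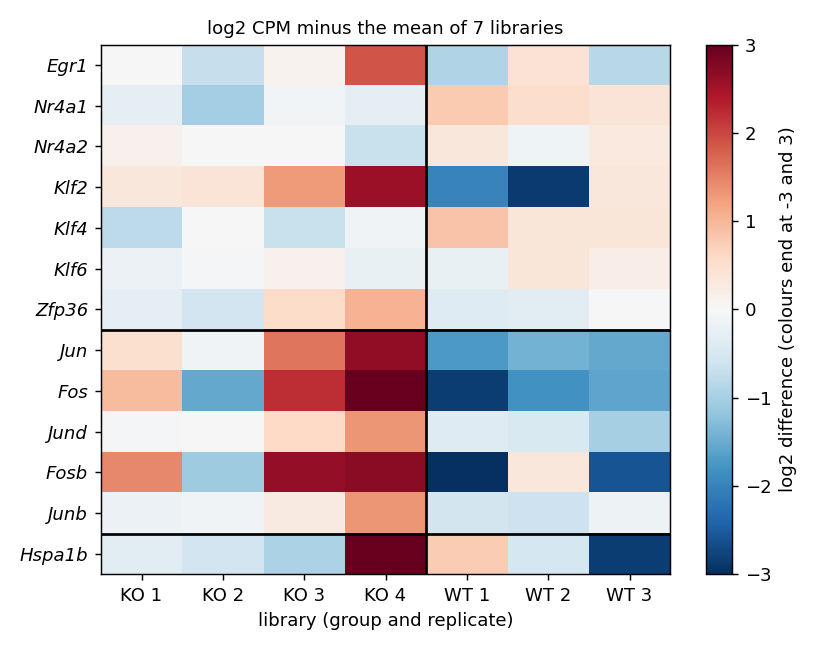
Log2 CPM of each gene in each library minus that gene's mean over the 7 libraries (colour, ending at -3 and 3), for the 7 tested members, 5 AP-1 genes and Hspa1b. The column of KO replicate 4 is red for Egr1, Klf2, Zfp36, the AP-1 genes and Hspa1b, and is not for Nr4a1, Nr4a2, Klf4 or Klf6.

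KO replicate 4 was the highest library for 3 of the 7 tested members and the lowest for 2, Nr4a2 and, level with WT replicate 1, Klf6. Both hold on the CPM scale, and on the TPM scale WT replicate 2 was lowest for both. Over all tested genes it was highest for 26.8% and lowest for 25.5%, so standing at an end was common for this library. Summed TPM over the 10 members was 46.8, 39.9, 71.3 and 134.6 over KO libraries, then 39.8, 36.1 and 54.8 over WT, of which Egr1 and Zfp36 made up 55.2% to 81.2%. WT replicate 3, which also lacked Y-linked expression, was the highest WT library for Klf2 (0.862 CPM) and Zfp36 (54.1 CPM) and was at 15.2 CPM for Egr1, below WT replicate 2. The part of Y-linked expression in these values was tested only by the covariate and by leaving both libraries out. KO replicate 4 was also the highest library for 9 of 12 tested heat shock and dissociation-response genes, and the part of such a response in the members' values was not tested.

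Of 13 tested family relatives 1 was called, against 2.26% of all tested genes. It was Klf7, a factor of neurons and lymphoid progenitors, which fell by 1.33 on the log2 scale (edgeR adjusted p = 0.0242). KO libraries ranged from 9.05 to 12.3 CPM and WT libraries from 17.1 to 32.3 CPM, without overlap, and the call held without KO replicate 4 (-1.26, edgeR adjusted p = 0.0372). Klf1, the erythroid factor, was at 1.26 and Klf16 at -0.64, neither of which passed (edgeR adjusted p = 0.336 and 0.385). Zfp36l2, which also destabilises AU-rich mRNAs and is required by HSCs, averaged 550.1 ± 128 CPM (SD, n = 4) in KO against 735.0 ± 175 CPM (SD, n = 3) in WT (-0.42, edgeR adjusted p = 0.423), and Zfp36l1 averaged 22.2 ± 4.42 against 25.5 ± 5.80 CPM (-0.20, edgeR adjusted p = 0.721).

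Among 46 other early-response genes tested, edgeR called 0 in either direction. Before adjustment 10 were higher and 4 lower (p below 0.05), and after it DESeq2 called 3 higher with 2 lower, and limma voom 1 each way. The 4 of smallest p were Plk2, a polo-like kinase (-3.19), the helix-loop-helix inhibitor Id3 (3.67), the MAP kinase phosphatase Dusp4 (-1.35) and the antiproliferative Btg2 (0.66), with edgeR adjusted p of 0.0769 to 0.159. The median was 0.29, and 0.16 without KO replicate 4, which was highest for 25 of the 46, against 26.8% of all tested genes. Of all tested genes 14.6% had an unadjusted edgeR p below 0.05 in either direction. Of 31 upstream factors and co-regulators, such as Srf, the Elk factors, CREB coactivators, MEF2 and the Nab corepressors of Egr proteins, edgeR called 0, DESeq2 and limma voom 1 higher each, and 2 were higher and 3 lower before adjustment (edgeR, p below 0.05), with a median of -0.15. Smallest in p was the CREB coactivator Crtc3 at 0.78 (edgeR adjusted p = 0.117).

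Genes reported to depend on 2 of the members were read the same way. Of 18 listed mRNAs with AU-rich elements known to bind Zfp36, 10 were tested. Among these, 2 rose, the cytokine Il6 (3.62, edgeR adjusted p = 0.00308) and the chemokine Ccl3 (1.97, edgeR adjusted p = 0.00259), and 0 fell. Over all tested genes 0.599% were called higher. The list was chosen with earlier results of these data known, so setting its counts against all genes is no independent test. Before adjustment 6 of the 10 were higher and 0 lower, against 14.6% of all tested genes in either direction, and the median was 0.71. Ccl3 was at 26.2 ± 7.48 CPM (SD, n = 4) against 6.66 ± 0.300 CPM (SD, n = 3). Il6 and Ccl3 kept their calls without KO replicate 4 (3.40 and 2.13). Of 6 tested genes known to depend on Klf2 in T cells or endothelium, edgeR called 0, DESeq2 and limma voom 1 higher each, and 2 were higher before adjustment (edgeR, p below 0.05). Monocyte and macrophage markers, a population in which Klf4 and Ccl3 are prominent, summed to between 12.05 and 22.2 CPM over 14 genes in KO and between 8.39 and 18.2 CPM in WT, with 1 to 5 of the 14 at 0 in a library and 0 of 10 tested called by edgeR, DESeq2 or limma voom (1 higher before adjustment). The part of such cells in these values was not tested.

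**Figure D4:**
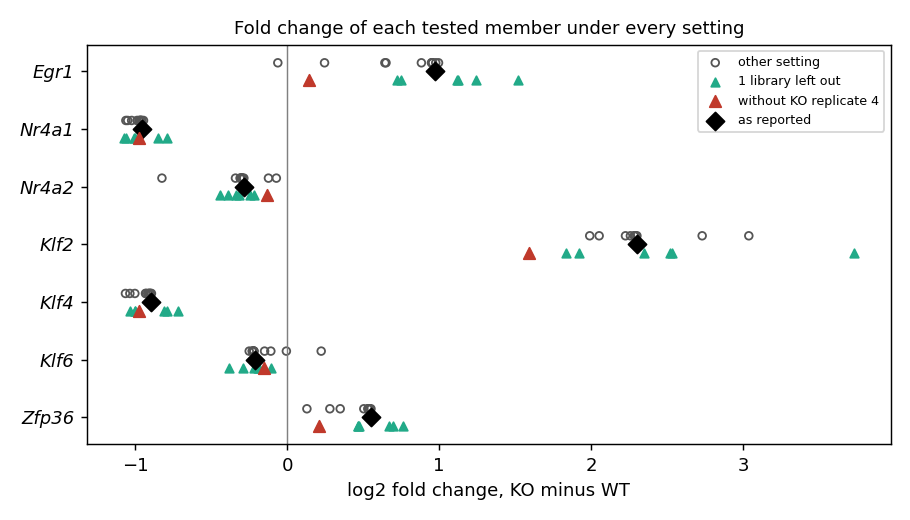
Log2 fold change, KO minus WT (x axis), of each tested member as reported (diamond), under other settings (open circles) and with 1 library left out (triangles, red for KO replicate 4). Egr1 and Klf6 each cross 0 once, and the other 5 stay on 1 side of it under the settings drawn.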

How the data were processed

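The members and gene lists were chosen with earlier results of these data known. Cutadapt, Salmon 0.11.2 and mm10 are named by the submitters' processing notes, and no source used here names the transcript set. The files hold deposited estimated counts, TPM and other values (effective lengths) per transcript. SMART-Seq amplification has no molecular identifiers, so intervals and floors cover counting error only. Transcripts were joined without version to GENCODE M21 (GRCm38): 111787 of 112092 matched, the other 305 holding at most 0.123% of reads. Estimated counts were summed to 34932 genes, rounded and tested in edgeR 4.0.16 by quasi-likelihood (R 4.3.3; TMM, filterByExpr, Benjamini-Hochberg over all genes tested, adjusted p below 0.05). SE is the absolute log2 fold change over the root of F. Older symbols of 4 listed genes were resolved through RefSeq synonyms. Counts were also simulated for this comparison (14695 genes simulated, 14351 left after filtering). Of 100 genes changed 2-fold 32% were recovered, of 100 changed 4-fold 83%, and 4 of 14151 unchanged genes tested were called. Changed genes were drawn only above a minimum mean CPM that Klf4 did not reach, so these shares do not cover members that low. Alternatives were RLE and upper quartile scaling, other filters, DESeq2 1.42.0, limma 3.58.1 voom, a length offset, a replicate block, Y-linked expression as covariate or selection, restriction to protein-coding genes, and leaving out each library. Named genes were all members, B4galt1, set AP-1, Egr4 and Zfp36-like genes, up to 4 of smallest p per list, and 8 genes of most similar profile. Some genes this rule names are not reported here. Other genes named are members of lists given as examples.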

Additional observations from a re-analysis of the deposited data

Results flagged for a closer look

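By Dixon's criterion, 6 of 40 genes examined within the KO group showed a single value far from the remaining 3, and groups of 3 were not examined. For independent, normally distributed values about 1 in 20 would do so. CPM were used untransformed, some genes were picked by p in these data, and 4 of the 6 flags fell in KO replicate 4. The 1 in 20 is therefore a rough guide only. Of the members, Egr1 reached 101.1 CPM in KO replicate 4 while the others lay between 16.7 and 29.1 CPM, and Nr4a3 at 0.742 CPM in KO replicate 1 against 0 to 0.111. KO replicate 4 also stood high for the heat shock gene Hspa1b, at 33.3 CPM against 0.804 to 1.25, for Itgb7, an integrin subunit of lymphocyte homing, at 21.2 CPM against 9.24 to 10.7, and for S1pr1, the sphingosine phosphate receptor, at 30.6 CPM against 9.13 to 12.8. For B4galt1, KO replicate 1 reached 19.3 CPM while the others lay between 14.6 and 14.9.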

How the results depend on the processing

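Over 18 alternatives, 125 values of the 7 tested members were compared; 123 kept the reported sign and 1 passed the test, Klf2 with Y-linked expression as a covariate, which gave 1 member called higher in place of 0. The sign turned for Egr1 among libraries with Y-linked expression (-0.0604) and for Klf6 with the length offset (0.22). No member was called lower under any alternative run, and Klf2 did not pass the stricter filter on low counts. Over all genes, 88 higher and 244 lower became 378 and 567 with DESeq2, 269 and 439 with limma voom, 218 and 396 with Y-linked expression as a covariate, and 213 higher with the length offset; with 1 library left out the counts ran from 30 to 130 higher and from 157 to 279 lower. The share of higher among called genes was 26.5%, against 40% with DESeq2, 38% with limma voom, 46.1% with the length offset and 15.2% without KO replicate 3. DESeq2 called 4 AP-1 genes and 3 AU-rich mRNAs higher, in place of 1 and 2. The causes were not tested. No sign of pairing by replicate number was seen: deviations of same-numbered libraries correlated at -0.05, -0.12 and -0.04, and none of these matched its own number best. So few libraries cannot exclude a pairing. With the replicate block 58 genes were higher, Egr1 was at 0.25, Nr4a2 at -0.12 and Zfp36 at 0.13. Replicate 4 is present in KO only, so under the block KO replicate 4 adds nothing to these fold changes. Leaving that library out without a block gave 0.15, -0.13 and 0.21. Low reads limit Klf2, Klf4, Nr4a3, Egr2 and Egr3.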

Other observations

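Of 12 tested heat shock and dissociation-response genes, edgeR, DESeq2 and limma voom called 0 (1 lower at an unadjusted p below 0.05 with edgeR), and KO replicate 4 was the highest library for 9 of the 12, against 26.8% of all tested genes. Hspa1b showed 1.25, 1.03, 0.804 and 33.3 CPM over KO replicates and 2.62, 1.08 and 0.216 CPM over WT.

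By root mean square difference of standardised log2 CPM over the 7 libraries, the genes nearest the members' mean profile among 11641 compared were Abcd3, Rdh14, Mcu, Basp1, Id2, Camk2d, Selenop and Qars, at 0.293 to 0.356 against a median of 1.30. None of these 8 was called. The mean profile averages members whose estimates have opposite signs, so it describes no single member.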
